A study of Mus musculus with 10 samples.

Results

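The 6 genes that encode the chains of collagen IV, Col4a1 to Col4a6, were taken by symbol from a table of 24421 mouse genes, and all 6 passed the filter on low counts that left 13203 genes to test. Total RNA was sequenced from 5 libraries of untreated normal lung and 5 libraries of lung squamous cell carcinoma (SCC) from animals given NTCU, a nitrosourea carcinogen, all from wild-type NIH Swiss mice. Regions were laser-captured from fixed, paraffin-embedded sections. The labels give no ages, no dose or length of treatment, and no animal for a library. The p-values below therefore rest on the spread between libraries, which may be technical. Where regions came from the same animal, they understate the error.

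Collagen IV is the network-forming collagen of basement membranes, the thin sheets under epithelia and endothelia. Its chains join in 3 kinds of trimer: 2 alpha 1 chains with 1 alpha 2 chain, which is found in nearly all basement membranes, alpha 3 with alpha 4 and alpha 5, which is found in kidney glomeruli and in the lung alveolus, and 2 alpha 5 chains with 1 alpha 6 chain, which lies under skin and other stratified epithelia and around smooth muscle. Mutations of the alpha 3, alpha 4 or alpha 5 gene cause Alport syndrome, and the alpha 3 chain carries the epitope of the autoantibodies of Goodpasture disease, which affects kidney and lung.

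The genes lie head to head in 3 pairs, each pair on opposite strands with the starts side by side. In GENCODE M21 (GRCm38), Col4a1 (chromosome 8, 11198423 to 11312826, minus strand) and Col4a2 (11312805 to 11449287, plus strand) overlap by 22 bases at their starts. Col4a4 (chromosome 1, 82448423 to 82586849, minus strand) and Col4a3 (82586921 to 82722059, plus strand) start 71 bases apart. Col4a6 (chromosome X, 141165403 to 141474076, minus strand) and Col4a5 (141475385 to 141689234, plus strand) start 1308 bases apart. The following stretches are shown because the results are given pair by pair, each from the RefSeq promoter windows of GRCm38.p6, 5′ to 3′, with capitals for matches on either strand to GGGCGG (GC box), CCAAT or TATAA. The first is the 22-base overlap of Col4a1 and Col4a2 (chr8:11312805-11312826, plus strand), the second the 30 bases before the start of Col4a4 (chr1:82586850-82586879, minus strand), and the others lie before the RefSeq starts of Col4a5 (chrX:141475169-141475369, plus strand) and Col4a6 (chrX:141474096-141474326, minus strand).
Col4a1/Col4a2 overlap: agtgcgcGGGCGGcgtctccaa
Col4a4 upstream: gtggccagcagccctgcccagattaagcgg
Col4a5 upstream: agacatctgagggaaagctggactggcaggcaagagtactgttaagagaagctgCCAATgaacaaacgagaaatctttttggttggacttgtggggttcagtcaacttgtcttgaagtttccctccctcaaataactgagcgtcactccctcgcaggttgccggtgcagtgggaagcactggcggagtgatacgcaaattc
Col4a6 upstream: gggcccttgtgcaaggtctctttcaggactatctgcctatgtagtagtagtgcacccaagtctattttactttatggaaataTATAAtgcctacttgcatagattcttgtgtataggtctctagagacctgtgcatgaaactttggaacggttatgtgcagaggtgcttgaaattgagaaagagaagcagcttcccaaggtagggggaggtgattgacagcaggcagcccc
Windows of 300 bases (250 before and 50 after the start) were at hand for 5 of the 6 genes, all but Col4a3. The Col4a1 window held 1 GC box and 1 CCAAT, the Col4a2 window, which overlaps it, 3 and 1, the Col4a5 window 1 and 1, and the Col4a6 window 1 GC box and 1 TATAA, while the Col4a4 window held none of the 3 motifs. Among all 32851 mouse windows, 35.7% held a GC box, 37.4% a CCAAT and 24.9% a TATAA, so these matches describe the letters only.

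The alpha 3 and alpha 4 genes fell 5.51-fold and 6.10-fold in SCC, the alpha 1 and alpha 2 genes fell 2.41-fold and 2.85-fold, and the differences of the alpha 5 and alpha 6 genes missed the threshold. Of the 6 genes 4 were called lower by edgeR at an adjusted p under 0.05 and 0 higher (all 6 fold changes were negative), where 8.68% of all genes tested were called lower and 12.5% higher (median log2 fold change of all genes 0.07). When the SCC group held just SCC 2 and SCC 5, 2 were called lower, against 5.16% of all genes, and after subtraction of a length-proportional background 3 were, against 6.79%. These alternatives bear on the results because SCC 1, SCC 3 and SCC 4 carried many counts on olfactory and vomeronasal receptor genes. That signal was 3.27, 0.593, 3.29, 3.50 and 0.412 CPM (a count scaled to the total of its library) per kb of coding length in SCC 1 to SCC 5, and 0.0420 to 0.209 in normal lung. Its source was not tested. Total counts ran from 1457641 to 6817106 in normal lung and from 1004105 to 3691806 in SCC. Fewer cells of a type and less RNA per cell cannot be told apart in these samples.

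**Figure D1:**
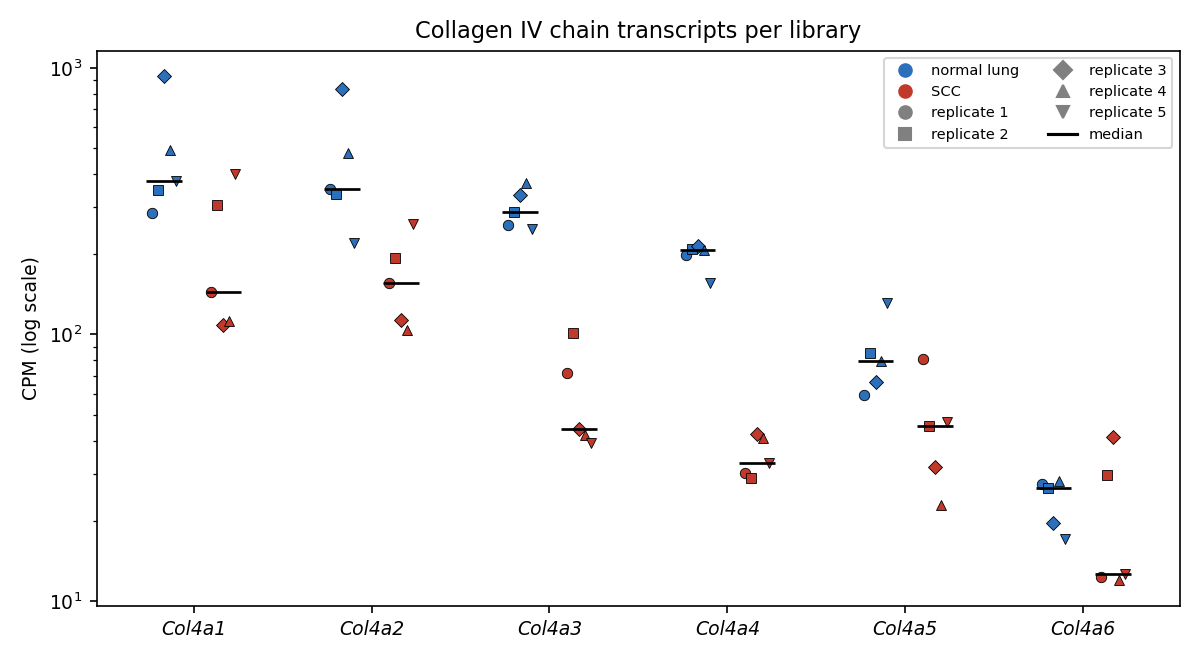
CPM of the 6 collagen IV genes (log axis) in each library, blue for normal lung and red for SCC, with a marker shape per replicate number and a bar at the median of 5 libraries. For Col4a3 and Col4a4 the red points all lie under the blue ones, and for the other 4 genes the groups overlap.

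Col4a3, which encodes the alpha 3 chain, stood at 258, 289, 332, 370 and 248 CPM in normal 1 to normal 5. In SCC 1 to SCC 5 it stood at 71.7, 102, 44, 41.8 and 39.2 CPM. Each SCC library was below each normal library, with SCC 2 the highest of the SCC group. The gene fell by 2.46 on the log2 scale, or 5.51-fold (SE 0.38, n = 5 and 5). The adjusted p was 3.83e-05 by the quasi-likelihood test of edgeR with Benjamini-Hochberg adjustment.

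Col4a4, which encodes the alpha 4 chain, stood at 198, 210, 216, 207 and 156 CPM in normal 1 to normal 5. The SCC libraries held 30.2, 29.0, 42.4, 40.8 and 33.1 CPM. These groups did not overlap either, and the spread within each was the smallest of the 6 genes on the log2 scale, with an SD of 0.19 in normal lung and 0.27 in SCC. Col4a4 fell by 2.61 on the log2 scale, or 6.10-fold (SE 0.35, edgeR adjusted p = 7.34e-06). These 2 genes were the only members with no overlap between the groups, which 5.77% of all genes tested showed with SCC below. Both calls held in each alternative tried, with changes from -2.81 to -2.25 for Col4a3 and from -3.58 to -2.40 for Col4a4. The estimated background made up 20.7% of the Col4a3 counts and 48.3% of the Col4a4 counts in SCC. For Col4a4 it was 110%, 78.6% and 86.6% in SCC 1, SCC 3 and SCC 4, and 20.7% and 12.6% in SCC 2 and SCC 5, where most counts lay above it.

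Col4a1, the alpha 1 gene, stood at 285, 347, 932, 491 and 375 CPM in normal 1 to normal 5. In SCC 1 to SCC 5 it stood at 144, 306, 108, 113 and 400 CPM. By CPM SCC 2 and SCC 5 lay within the range of normal lung, and the other 3 SCC libraries lay below it. With the library scaling of the test (TMM factors) SCC 2 (log2 CPM 8.172) lay just below normal 1 (8.178). Col4a1 fell by 1.27 on the log2 scale, or 2.41-fold (SE 0.45, edgeR adjusted p = 0.0438). The estimated background was 15.0% to 20.6% of its counts in SCC 1, SCC 3 and SCC 4 and 0.681% to 1.28% in SCC 2 and SCC 5, and its part in the result was not tested further. The call was lost with SCC 2 and SCC 5 alone (-0.58, adjusted p = 0.449), after background subtraction (-1.05, adjusted p = 0.0870), and without normal 3 (-0.98, adjusted p = 0.133), normal 4, SCC 1, SCC 3 or SCC 4.

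Col4a2, the alpha 2 gene, stood at 350, 337, 830, 480 and 220 CPM in normal 1 to normal 5. Its SCC values were 157, 194, 113, 104 and 261 CPM. Only SCC 5 was above the lowest normal library, and as for Col4a1 the highest SCC values were in SCC 5 and SCC 2. Col4a2 fell by 1.51 on the log2 scale, or 2.85-fold (SE 0.41, edgeR adjusted p = 0.0095). The call held after background subtraction (-1.26, adjusted p = 0.0237) and without any single library, and was lost with SCC 2 and SCC 5 alone (-1.08, adjusted p = 0.123). Normal 3 was the highest normal library for both genes of the pair. It also had the highest normal sums of 7 of the 11 marker lists: endothelium (4428 CPM, others 2954 to 3545), smooth muscle and pericytes (1428, others 848 to 1051), fibroblasts (1691, others 991 to 1188), alveolar type 1 and type 2 cells, heart muscle, and basal and squamous cells. The part of these cells in the collagen values was not tested.

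Col4a5, on the X chromosome, encodes the alpha 5 chain that both remaining kinds of trimer use. Its normal values were 59.1, 85.4, 66.2, 79.9 and 131 CPM. Its SCC values were 81.1, 45.5, 31.9, 22.9 and 47.0 CPM, again in order of replicate number. SCC 1 lay within the normal range and the other 4 SCC libraries below it. The difference of -1.01 (SE 0.40) missed the threshold, with an edgeR adjusted p of 0.0711. The call was made without SCC 1 (-1.33, adjusted p = 0.0256), without normal 1 (-1.27, adjusted p = 0.0409), with no filter on low counts (-1.38) and with limma-voom (-1.37).

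Col4a6, the neighbour of Col4a5 and the gene of the alpha 6 chain, had the lowest level of the 6. Normal libraries held 27.6, 26.7, 19.7, 28.2 and 17.2 CPM of it. SCC libraries held 12.3, 29.8, 41.3, 12 and 12.7 CPM. By CPM SCC 2 and SCC 3 lay above the highest normal library and the other 3 SCC libraries below the lowest. With the TMM factors of the test SCC 2 (log2 CPM 4.848) lay below normal 4 (5.036). The 110 counts of SCC 2 allow 24.5 to 35.9 CPM (95% Poisson interval), which reaches into the normal range. The mean difference was -0.26 (SE 0.52, edgeR adjusted p = 0.778). Counting error is large here: the 13 counts of SCC 1 allow 6.53 to 21 CPM and the 12 counts of SCC 4 allow 6.18 to 20.9 CPM (95% Poisson intervals, counting error only), which reach into the normal range. The background estimate came to 177% and 195% of the Col4a6 counts in these libraries, and to 53.0% in SCC 3, so it is too high for this gene in at least SCC 1 and SCC 4.

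**Figure D2:**
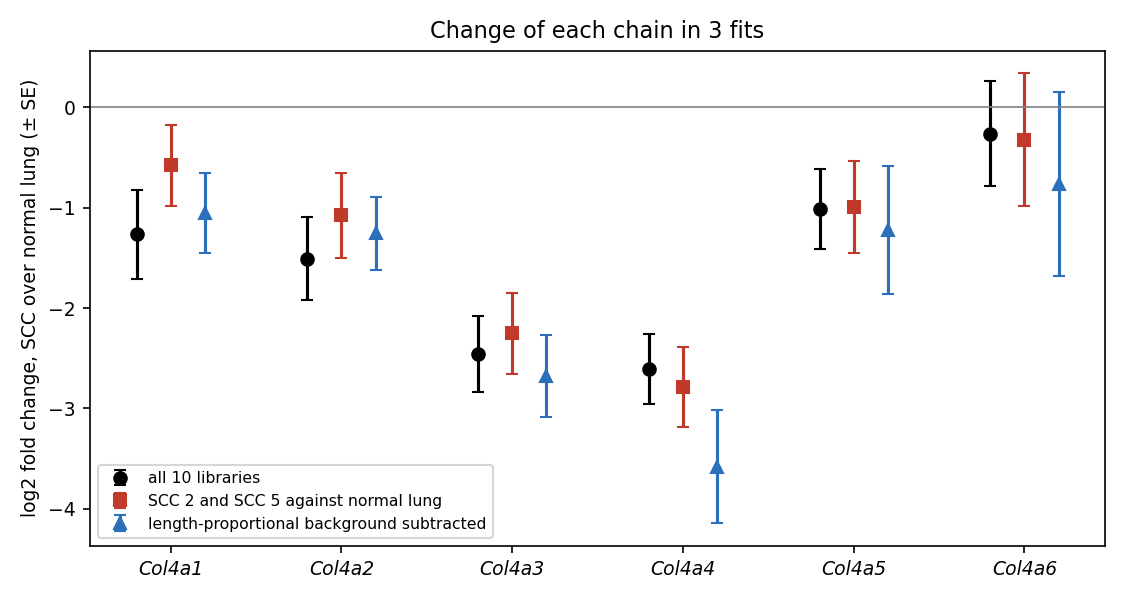
Log2 fold change of each chain, SCC over normal lung, with its SE, from all 10 libraries (circles), from SCC 2 and SCC 5 against normal lung (squares) and after background subtraction (triangles). Col4a3 and Col4a4 lie below -2 in the 3 fits, and Col4a1 moves from -1.27 to -0.58 with SCC 2 and SCC 5 alone.

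Per kb of exon, normal lung held the chains in the order Col4a1 (73.5 ± 39.3 CPM per kb, SD, n = 5), Col4a2 (68.8 ± 36.4), Col4a3 (35 ± 5.96), Col4a4 (19.5 ± 2.35), Col4a5 (12.9 ± 4.31) and Col4a6 (3.59 ± 0.762). Col4a1 and Col4a2 did not differ beyond their spread, with Col4a1 the higher in 3 of 5 libraries. Col4a4 was above Col4a5 in 4 of 5, and each other neighbour in this order was the higher in 5 of 5 libraries. In SCC the order was Col4a1 (32.4 ± 19.9), Col4a2 (25.7 ± 9.95), Col4a5 (6.99 ± 3.39), Col4a3 (6.97 ± 3.14), Col4a4 (3.47 ± 0.609) and Col4a6 (3.25 ± 2.01). Col4a5, below Col4a3 and Col4a4 in normal lung, was level with Col4a3 in SCC (higher in 2 of 5 libraries), and Col4a4 was above Col4a6 in 3 of 5 SCC libraries. With coding length in place of exon length Col4a3 (11.9 ± 5.36 CPM per kb) came before Col4a5 (9.0 ± 4.37) in SCC, again within their spread, and the normal order was the same. These levels hold no background subtraction. The estimated background was 3.27, 3.29 and 3.50 CPM per kb in SCC 1, SCC 3 and SCC 4, near the SCC means of Col4a4 and Col4a6. In SCC 3 and SCC 4 it was 64% and 71.5% of the Col4a3 counts, and 67.4% and 99.8% of the Col4a5 counts. The SCC order below Col4a2 is therefore uncertain.

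The summed CPM of all 6 genes was 1148 to 2396 in normal lung, against 334 to 793 in SCC. The alpha 1/2 set summed to 596 to 1762 CPM in normal lung and 216 to 661 in SCC, and the alpha 3/4/5 set to 515 to 656 and 106 to 183. The alpha 5/6 set summed to 85.8 to 148 in normal lung, against 34.9 to 93.3 in SCC. The groups overlapped for the alpha 1/2 and alpha 5/6 sums and not for the alpha 3/4/5 sums. Within the summed CPM per exon kb of the 6 genes, the alpha 1 and alpha 2 genes together took 64.2% ± 8.5 (SD, n = 5) in normal lung and 71.3% ± 9.29 in SCC. The alpha 3 and alpha 4 genes took 27.1% ± 5.55 in normal lung and 14.6% ± 4.73 in SCC, and the alpha 5 and alpha 6 genes 8.65% ± 3.84 and 14.1% ± 5.72. With Col4a5 counted in, the alpha 3/4/5 share was 33.9% ± 8.0 in normal lung and 23.9% ± 7.55 in SCC. The groups overlapped for this share (20.5% to 40.9% and 12.8% to 33.2%). SCC 5 had the largest alpha 1/2 share (85.6%) and the smallest alpha 3/4 share (6.67%) of the 10 libraries, and normal 3 had the extreme values of normal lung (78.6% and 17.5%). After background subtraction the SCC shares were 81.6% for alpha 1/2, 8.87% for alpha 3/4 and 9.48% for alpha 5/6, and in SCC 2 and SCC 5 their means were 80.0%, 10.5% and 9.44%. The alpha 5/6 share of SCC was then close to that of normal lung.

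**Figure D3:**
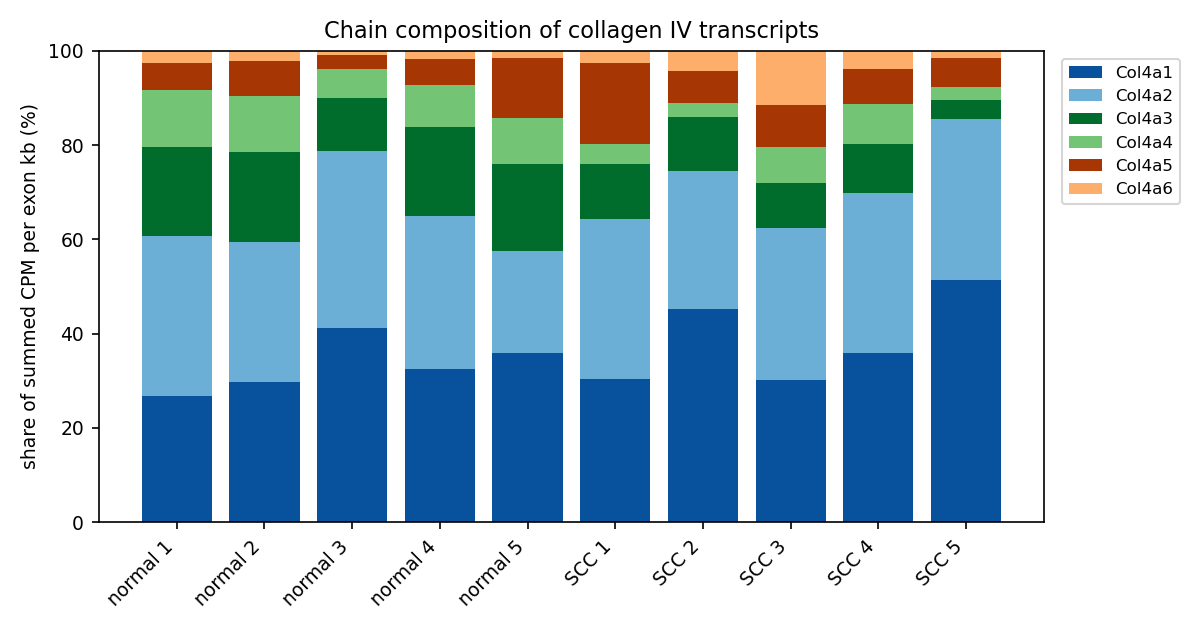
Share of each chain in the summed CPM per kb of exon of the 6 genes, one stacked bar per library, blue shades for alpha 1/2, green for alpha 3/4 and orange for alpha 5/6. The green part is 17.5% to 31.1% in normal libraries and 6.67% to 18.9% in SCC libraries.

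Ratios between 2 chains within a library do not depend on how libraries are scaled to each other. In all, 9 such ratios were compared between the groups on log2(count + 0.5), with an exact permutation test (two-sided, all 252 ways to relabel the libraries, lowest possible p 0.00794). No ratio passed after Benjamini-Hochberg adjustment over the 9. This test could not pass a single ratio: alone at the lowest possible p it has an adjusted p of 0.0714, even where the groups do not overlap. Within the head-to-head pairs the mean ratios moved by -0.10 (Col4a2/Col4a1, exact permutation p = 0.722), -0.08 (Col4a4/Col4a3, p = 0.833) and 0.64 (Col4a6/Col4a5, p = 0.310). After background subtraction the first stayed at -0.10, while Col4a4/Col4a3 moved to -1.52 and Col4a6/Col4a5 to 0.02. The Col4a4/Col4a3 ratio was tighter in normal lung (-0.84 to -0.38) than in SCC, where it ran from -1.80 in SCC 2 to -0.03 in SCC 4.

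Between the pairs, Col4a6/Col4a3 was the one ratio without overlap between the groups. Its log2 values were -3.22, -3.42, -4.07, -3.70 and -3.83 for the normal libraries. For the SCC libraries they were -2.50, -1.76, -0.09, -1.77 and -1.62. The difference was 2.10, or 4.29-fold in favour of Col4a6 in SCC (exact permutation p = 0.00794, adjusted p = 0.0714, higher in 5 of 5 SCC libraries). After background subtraction the difference was 0.76 (exact permutation test, adjusted p = 0.694), and with SCC 2 and SCC 5 as the SCC group it was 1.96. Col4a5/Col4a3 was 2.75-fold higher in SCC (1.46 on the log2 scale, exact permutation p = 0.0159, adjusted p = 0.0714), and the same 2 settings gave 0.73 (adjusted p = 0.694) and 1.42. Col4a3/Col4a1 differed by -1.15 (exact permutation p = 0.0317, adjusted p = 0.0893) and Col4a4/Col4a2 by -1.13 (p = 0.0397, adjusted p = 0.0893). Background subtraction gave -1.79 and -3.22 for them (exact permutation test, adjusted p = 0.0714 for both). Without normal 3 Col4a3/Col4a1, Col4a4/Col4a2 and Col4a6/Col4a3 all reached the lowest possible p together, and their adjusted p was 0.0476 (exact permutation test). Col4a5/Col4a1 and Col4a6/Col4a1 differed by 0.31 and 0.95 (exact permutation p = 0.603 and 0.214), and both turned negative after background subtraction (-1.06 and -1.04). The subtracted count was 0 for Col4a4 in SCC 1, for Col4a5 in SCC 4 and for Col4a6 in SCC 1 and SCC 4, so in these libraries the subtracted ratios rest on the added 0.5.

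**Figure D4:**
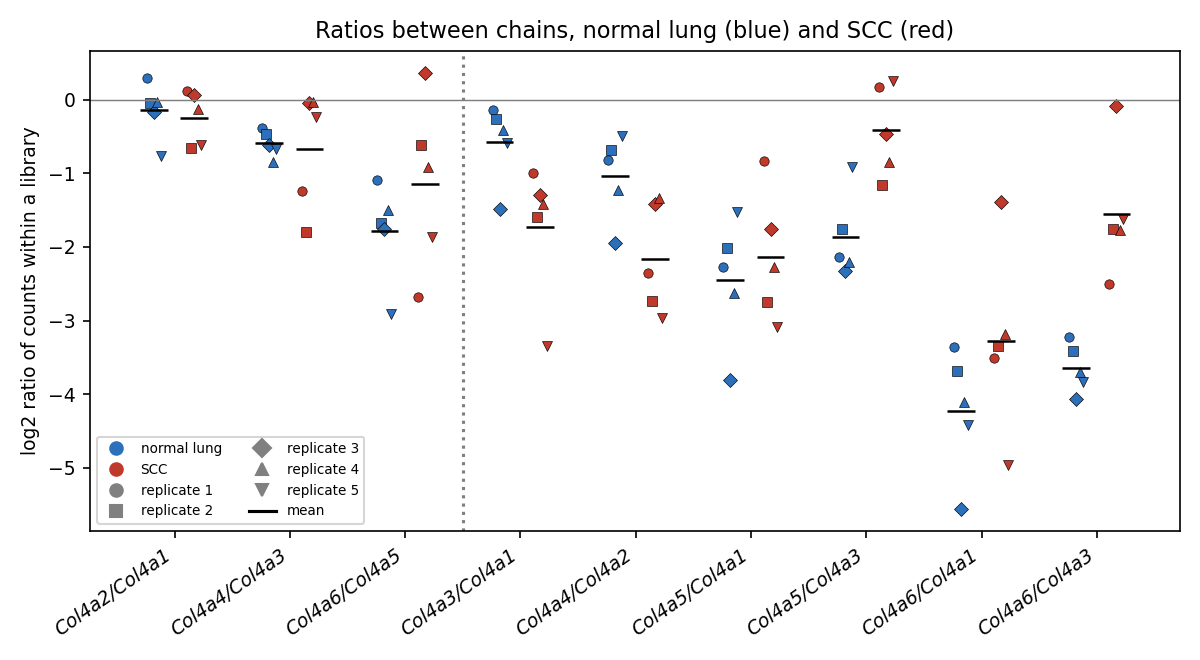
Log2 ratio of counts between 2 chains within each library, blue for normal lung and red for SCC, with marker shapes per replicate number and bars at the mean of 5 libraries. The dotted line parts ratios within a head-to-head pair (left) from ratios between pairs. Col4a6/Col4a3 shows no overlap between the groups, and the groups overlap for the other 8 ratios.

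Profiles of the other tested genes were set against each chain by the root mean square difference of log2 CPM over the 10 libraries, each profile centred on its own mean, among 11303 genes compared. Col4a2 ranked 8 of these for Col4a1 and Col4a1 ranked 6 for Col4a2 (root mean square difference 0.344). Col4a4 ranked 97 for Col4a3, and Col4a3 ranked 85 for Col4a4 (0.514). Col4a5 ranked 4040 for Col4a6, and Col4a6 ranked 3469 for Col4a5 (0.905). So by the root mean square difference the order of likeness within the pairs went from alpha 1/2 over alpha 3/4 to alpha 5/6. The profiles span both groups, so the measure includes the differences between SCC and normal lung given above. Ranks cannot be compared between chains: the difference of 0.769 between Col4a2 and Col4a3 ranked 500 for Col4a3 and 1655 for Col4a2. Counting error also adds to the measure, and the summed SCC counts fell in the same order. They were 2573 and 1830 for Col4a1 and Col4a2, 669 and 338 for Col4a3 and Col4a4, and 450 and 241 for Col4a5 and Col4a6. The part of counting error and background in this order was not tested. The nearest genes were Ctsh, App and Ctnna1 for Col4a1, Myo10, Sec62 and App for Col4a2, and Pdgfra, Slco2a1 and Vwf for Col4a3. For Col4a4 they were Spock2, Parvb and Dock4, for Col4a5 Dda1, Trim8 and Lman1, and for Col4a6 Fbxo42, Tbl2 and Mcm3ap. Of these, Vwf, Pdgfra and Spock2 also stand in the endothelial, fibroblast and alveolar type 1 marker lists.

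Markers of cell types that make basement membranes differed between the same libraries, and their part in the collagen IV values was not tested. Among all genes tested 8.68% were called lower and 12.5% higher. Of 12 alveolar type 1 markers, the flat gas-exchange cells, 10 were lower and 1 higher (median -2.69), with summed CPM of 7101 to 9213 in normal lung, against 1085 to 3187 in SCC. Ager, a receptor abundant in these cells, went from 923 to 68.7 mean CPM. Of 16 endothelial markers 13 were lower and 0 higher (median -2.64), with summed CPM of 2954 to 4428 and 379 to 561, and Pecam1 and Cdh5, both junction proteins of endothelium, fell by 3.46 and 3.48. Of 11 smooth muscle and pericyte markers 6 were lower and 0 higher (median -1.41), Acta2 at -2.29, with summed CPM of 848 to 1428 and 372 to 437. All 12 basal and squamous markers, among them Col17a1 and Itgb4, were higher, Krt5 and Trp63 at 8.64 and 6.05, with summed CPM of 27.0 to 70.4 in normal lung, against 1248 to 8355 in SCC. Of 9 tested fibroblast markers 4 were lower and 0 higher, Pdgfra at -2.33 and Col1a1 at 0.12 (adjusted p = 0.891). Their summed CPM was 296 to 663 in SCC 1 to SCC 4 and 1235 in SCC 5. SCC 5, the SCC library with the highest Col4a1 and Col4a2, also had the highest basal and squamous sum (8355, other SCC libraries 1248 to 3034). Markers of alveolar type 2 cells (10 of 10), heart muscle (5 of 5) and red cells (2 of 2 tested) were lower as well, and so were 2 of 6 airway and 2 of 8 leukocyte markers. Of 4 tested mesothelial markers 2 were higher (Msln and Upk1b), and Upk3b (-1.74) and Lrrn4 (1.34) were not called. With SCC 2 and SCC 5 alone Upk3b was called lower (-5.64, edgeR adjusted p = 0.0158) and Lrrn4 stood at -2.59 without a call. Krt6a and Dsg3 had 0 counts in normal lung. Of the red cell markers Hbb-bt had 0 counts in all 10 libraries, and Hba-a1 and Hba-a2, at 0 in SCC, had counts in only 1 and 2 normal libraries and were not tested.

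The other basement membrane genes went both ways, where 8.68% of all genes tested were called lower and 12.5% higher. Of the 11 laminin chains, which form the second network of the basement membrane, 4 were lower and 1 higher (median -0.65). Lama4 (-1.90), Lamc1 (-1.37), Lama2 (-1.28) and Lamb2 (-1.27) were lower, and Lama1 was higher (3.93, adjusted p = 0.000799; 0.068 after background subtraction). Lama3 at -0.65, Lamb3 at 0.96 and Lama5 at 0.29, alpha and beta chains of epithelial laminins, did not pass the test. Lamb3 passed when SCC 2 and SCC 5 stood for SCC (1.88, adjusted p = 0.0206), and it stood at 266 CPM in SCC 5 against 11.3 to 43.8 in the other SCC libraries. Of 19 other basement membrane genes 5 were lower and 4 higher (median 0.74). Nid1, which links laminin to collagen IV, fell by 1.5 and Hspg2 (perlecan) by 1.36, close to Col4a1 and Col4a2. Both kept their calls after background subtraction. With SCC 2 and SCC 5 alone both lost them (-1.09, edgeR adjusted p = 0.075, and -0.95, adjusted p = 0.108). The largest fall was that of Npnt, an integrin ligand (-2.49). Sparc, a collagen-binding protein, fell by 1.87. The largest rises were those of the anchoring collagens Col17a1 (7.03, SE 0.90) of hemidesmosomes and Col7a1 (2.84) of anchoring fibrils. With SCC 2 and SCC 5 alone 1 laminin was lower and 2 were higher, and of the other basement membrane genes 2 were lower and 3 higher. Among all 14305 genes tested in that fit 738 (5.16%) were lower and 592 higher. After background subtraction Col7a1 lost its call (2.72, adjusted p = 0.149).

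**Figure D5:**
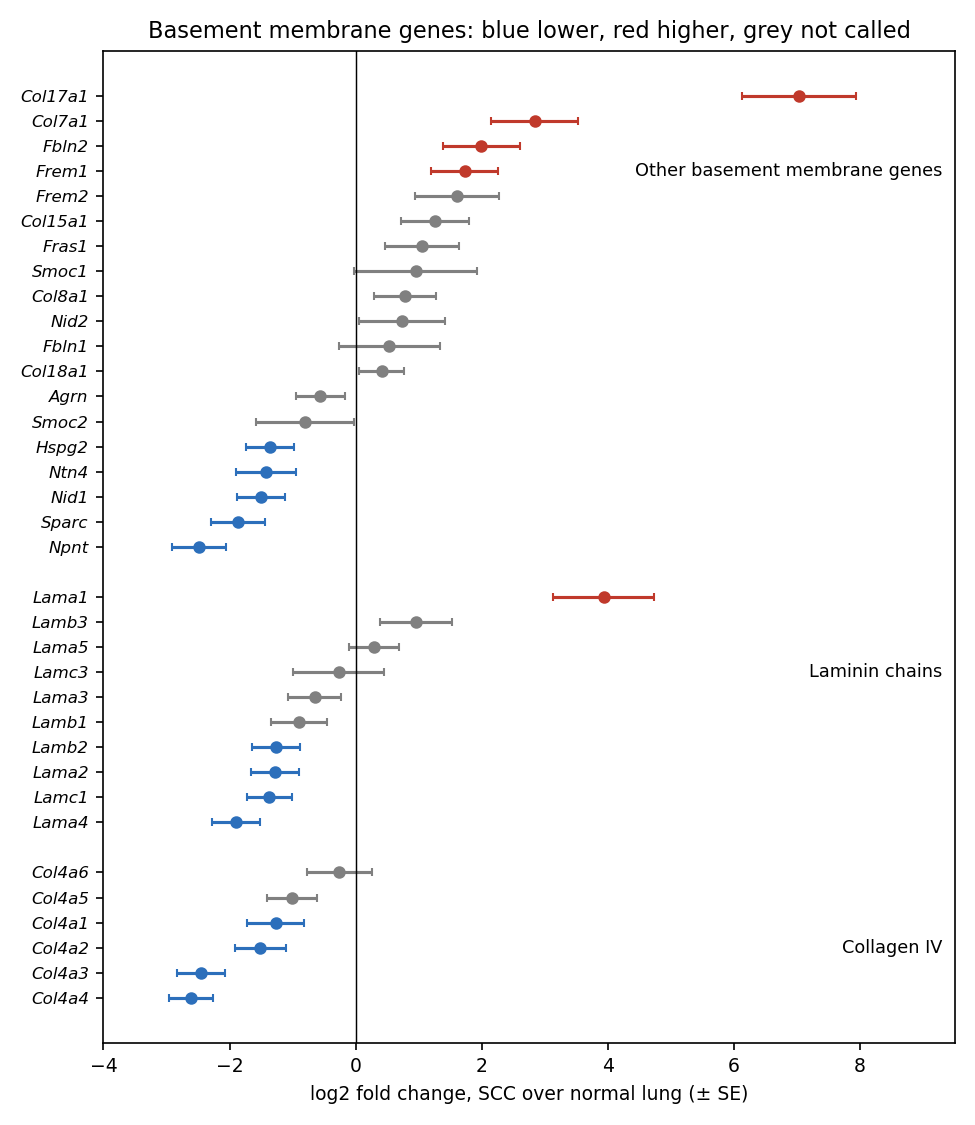
Log2 fold change (SCC over normal lung, with SE) of the collagen IV genes, 10 laminin chains and other basement membrane genes, blue where called lower, red where called higher and grey where not called. Col4a3 and Col4a4 stand at -2.46 and -2.61, next to Npnt at -2.49 on the low side, and Col17a1 stands at 7.03.

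Of 27 genes that modify, fold and cross-link collagen chains 4 were lower and 4 higher (median -0.14), against 8.68% and 12.5% of all genes tested. Pxdn, the peroxidase that makes the sulfilimine bonds between collagen IV molecules, stood at 129 to 181 CPM in normal lung and 24.5 to 71.7 in SCC, without overlap, and fell by 1.96 (SE 0.37, edgeR adjusted p = 0.000321). SCC 2 and SCC 5 alone gave -2.03 (adjusted p = 0.00148). Serpinh1, the collagen chaperone, fell by 1.64. The largest rises were Loxl4 (3.51), a lysyl oxidase, and Mia2 (3.17), a factor of collagen export. Both missed the threshold when SCC 2 and SCC 5 stood for SCC, at 3.49 (edgeR adjusted p = 0.0535) and 2.91 (0.108). After background subtraction Loxl4 was called (3.62, edgeR adjusted p = 0.0304). Mia2, with an estimated background of 49.6% of its SCC counts, did not pass the filter on low counts there. P4ha1 and P4ha2, prolyl hydroxylase subunits, did not pass the test (-0.94 and -0.44).

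Among 13 tested receptors of collagen and basement membranes 4 were lower and 1 higher (median -0.60), against 8.68% and 12.5% of all genes tested. Itga1, the alpha subunit of a collagen IV receptor, stood at 174 to 372 CPM in normal lung and 23.9 to 81.1 in SCC and fell by 2.68 (SE 0.40, edgeR adjusted p = 2.39e-05). Ddr2, a collagen receptor kinase, fell by 1.91. Itga2 (-0.33) and Ddr1 (0.76) did not pass the test. Itgb4, the hemidesmosome integrin that binds laminin, rose by 3.82 (SE 0.56, edgeR adjusted p = 2.27e-05).

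Of 12 tested proteases and inhibitors that act on collagen IV 3 were higher and 2 lower (median 0.86), against 12.5% and 8.68% of all genes tested. Mmp2 and Mmp9, the gelatinases known for cleaving it, did not pass the test (0.09 and 0.20), and Mmp9 held 113 counts in SCC. Mmp12, macrophage elastase, rose by 4.29 (SE 0.75), and Timp3, a matrix-bound inhibitor, fell by 3.09 (SE 0.48), from 2030 to 2650 CPM in normal lung to 170 to 590 in SCC. Timp1, a secreted inhibitor, rose by 2.94 from at most 5.28 CPM in normal lung, and Timp2, also an inhibitor, fell by 1.3. With SCC 2 and SCC 5 alone Timp1 was called (3.76, edgeR adjusted p = 0.0421) and Timp2 was not (-0.75, adjusted p = 0.147). After background subtraction Timp2 missed the threshold (-1.02, edgeR adjusted p = 0.058), and Timp1 did not pass the filter on low counts. Of 9 tested fibrillar collagens 2 were higher and 0 lower (median 0.34), against the same shares of all genes. The higher genes were Col24a1 (4.09) and Col11a2 (2.52), with 188 and 104 counts in SCC and no call with SCC 2 and SCC 5 alone. The estimated background made up 61.4% of the Col24a1 counts and 98% of the Col11a2 counts in SCC. Neither gene passed the filter on low counts after background subtraction.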

How the data were processed

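The 10 mouse libraries came from laser-captured lung, 5 normal and 5 SCC. The authors deposited raw read counts per gene symbol, with no normalization. Per the submitters' processing notes, the tools were HTSeq 0.6.1, TopHat2 2.0.1, cutadapt 1.9.1 and DESeq2, with build mm10. The annotation and the strand setting are not stated in the sources at hand, so counts of overlapping genes are uncertain. CPM divides a count by the total of its library, without the TMM factors that the test uses.

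Counts were tested in R 4.3.3 with edgeR 4.0.16: filterByExpr by group, TMM factors, robust quasi-likelihood test, no covariate, Benjamini-Hochberg adjustment over 13203 genes, call at 0.05. The SE is the log2 fold change over the root of F. The fit was also run on counts simulated from the means and the common spread of normal lung. That simulation held neither the background nor the spread of the SCC libraries, so it does not test the fit for these. Replicate numbers are in accession order. Alternatives tried were 2 other filters, upper-quartile factors, DESeq2 size factors, DESeq2 1.42.0, limma-voom (limma 3.58.1) with quality weights, no robust estimation, SCC 2 and SCC 5 alone, background subtraction and leaving out each library.

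The background is the capped count per kb of coding length on 1440 receptor genes (highest 2% set to the 98th percentile), times the exon length of each gene. Lengths came from the GENCODE M21 basic set, which matched 24060 of 24421 symbols, 684 through RefSeq synonyms. Members, lists and alternatives were chosen with earlier results of these data known. Named genes are the 6 members, the 2 called genes of largest rise and fall in each of 6 companion lists, fixed genes of these lists and of 11 marker lists, and the 3 nearest profiles among genes whose mean reached 10 CPM. Genes named beyond this rule were chosen after their values were seen. One gene of this naming rule is not reported here.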

Additional observations from a re-analysis of the deposited data

Results flagged for a closer look

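The log2 ratio Col4a3/Col4a1 of SCC 5 was -3.34, far from the other SCC libraries (-1.59 to -1.0). Its gap to the nearest of these was 0.748 of the group's range, above the limit of 0.71 for 5 samples. Of 30 groups of values looked at in this way it was the only one past the limit, and chance alone flags about 1 in 20. SCC 5 combined the highest Col4a1 of the SCC group (400 CPM) with the lowest Col4a3 (39.2 CPM), and without it the ratio differed by -0.75 between the groups.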

How the results depend on the processing

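No paired analysis was possible because normal lung came from untreated animals and SCC from animals given NTCU. Col4a3 and Col4a4 were called lower in every alternative listed under processing. When each library was left out in turn, the log2 fold changes were -2.75 to -2.39 for Col4a3, -2.91 to -2.55 for Col4a4 and -1.87 to -1.25 for Col4a2, all called. Col4a1 ran from -1.71 to -0.98, with the call lost in 5 of these fits, and Col4a5 from -1.33 to -0.95, with a call in 2. Col4a1 also lost its call with DESeq2 size factors (-1.17), with a filter of 1 CPM in 5 libraries (-1.25), after background subtraction (-1.05) and with SCC 2 and SCC 5 alone (-0.58), where Col4a2 lost it too (-1.08). Col4a5 was called with no filter (-1.38) and with limma-voom (-1.37). These changes of call had no tested cause.

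Genes called higher and lower numbered 5470 and 2072 with no filter, 3257 and 2766 with limma-voom, and 592 and 738 with SCC 2 and SCC 5 alone. With the 1 CPM filter 3551 were higher, and after background subtraction 924. The median of all genes shifted by 0.64 with no filter, 0.30 with the 1 CPM filter, 0.19 with upper-quartile factors and -0.12 after background subtraction.

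After background subtraction the ratios Col4a5/Col4a1 (-1.06) and Col4a6/Col4a1 (-1.04) reversed, Col4a6/Col4a3 (0.76), Col4a5/Col4a3 (0.73) and Col4a6/Col4a5 (0.02) shrank, and Col4a4/Col4a3 (-1.52), Col4a3/Col4a1 (-1.79) and Col4a4/Col4a2 (-3.22) grew. The SCC shares were 81.6% for alpha 1/2 and 8.87% for alpha 3/4 there. With SCC 2 and SCC 5 alone Col4a2/Col4a1 differed by -0.50 and Col4a5/Col4a1 by -0.47, and no ratio could pass a test there (21 relabelings, smallest exact p 0.0952). Leaving out each library in turn, Col4a2/Col4a1 ran from -0.26 to 0.01 (0.00 without SCC 2), Col4a4/Col4a3 from -0.24 to 0.20 (0.06 without SCC 1) and Col4a5/Col4a1 from -0.03 to 0.55 (-0.02 without SCC 1), each crossing 0. Col4a3/Col4a1 ran from -1.38 to -0.75, Col4a4/Col4a2 from -1.36 to -0.93 and Col4a6/Col4a3 from 1.74 to 2.34, and each passed only without normal 3. In these fits (126 relabelings) a ratio at the lowest possible p passes only where other ratios reach it too. Without normal 1 Col4a6/Col4a3 still had no overlap, at an adjusted p of 0.143 (exact permutation test). The missed passes therefore cannot show that a ratio depends on normal 3. Depth limits Col4a6 most, with 12 and 13 counts in SCC 4 and SCC 1.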
